A study of Mus musculus with 2 samples.

Results

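Levels of cadherin genes, of Epcam and of catenin genes were compared between isolated proximal tubular (PT) cells of KAT5 KO mice and of wild-type mice. Of 10 genes chosen by name for their place in cell adhesion along the nephron, 9 carried a gene symbol on the array, out of 19505 genes in all, and 8 of these lay above the background level on at least 1 array. Ctnnb1, which encodes β-catenin, was matched by symbol to none of the probe sets and is not analysed here. The array was the Clariom S mouse array, on which labelled RNA binds to short probes of known genes and its brightness is read, and there was 1 array for each genotype. The KAT5 KO mice carried KAT5 flox/flox alleles and the γGT-Cre transgene on a C57BL/6J background, with Cre driven along the PT and most strongly in its last part. The control array came from mice labelled wild type, and whether these carried the floxed alleles without Cre was not given in the sources used here. Both samples were labelled as 8-week-old males, and 64 ng of RNA was labelled for each. PT cells were enriched by taking out CD31-positive (endothelial) cells and then selecting on Prominin1, and the number of mice behind each array was not given in the sources used here. With a single array per genotype, differences had no replicate check and carry no error or p-value, and this number of arrays limits how precise they are. Throughout, wild-type and KAT5 KO cells stand for the single array of each genotype.

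Cadherins are calcium-dependent adhesion proteins that join neighbouring cells at adherens junctions. The tails of the classical cadherins bind β-catenin, which binds α-catenin, and α-catenin links the junction to actin. β-catenin that is not held at the membrane can enter the nucleus and act in Wnt signalling. Epcam is an adhesion protein of epithelia that is not related to cadherins and does not need calcium. In the mouse kidney, the PT is known for N-cadherin (Cdh2), the distal nephron and the collecting duct for E-cadherin (Cdh1) and Epcam, and the whole tubule for Ksp-cadherin (Cdh16).

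The targeted gene was checked first. On the log2 scale of the deposited values, Kat5 was at 10.20 in wild-type and 8.67 in KAT5 KO cells, so that the latter had 34.8% of the wild-type level. Of 11654 genes above background on at least 1 array, 8.38% were lower by more. The paper reported a larger decrease of KAT5 in isolated PT cells. Whether the Kat5 probe set lies in the deleted part of the gene was not given in the sources used here. The Y-linked genes Uty, Eif2s3y and Kdm5d lay between 7.69 and 10.11 in wild-type and between 2.29 and 3.76 in KAT5 KO cells, although both samples were labelled male. The array of the KAT5 KO therefore goes against its sex label, and no result can be given without it. If the arrays differ in sex, sex and genotype cannot be told apart in any difference given here. Prom1, which encodes the antigen used for selection, was at 9.07 and 13.74 on the wild-type and KAT5 KO arrays, and Pecam1, which encodes CD31, was at 7.45 and 6.72. Of 27 PT markers on the array, 24 in wild-type and 26 in KAT5 KO cells lay above the background level. Their median levels were far apart, at 9.42 in wild-type and 17.07 in KAT5 KO cells. Markers of other cells were also present. In wild-type cells, 12 of 15 loop of Henle genes and 12 of 12 myeloid genes lay above background, and in KAT5 KO cells 10 and 12. The levels given here are therefore not those of PT cells alone. The background level was 5.13, taken from receptor genes of smell and taste, and levels under it were raised to it before differences were taken as KAT5 KO minus wild-type.

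The classical cadherins went in opposite directions. Cdh1, the E-cadherin of the distal tubule and collecting duct, was at 14.90 in wild-type and 11.51 in KAT5 KO cells. Its log2 difference was -3.39, or 10.5-fold lower, and only 0.438% of 11654 measured genes had a more negative difference. Cdh2, the N-cadherin of the PT, was at 5.13 in wild-type cells (-0.0051 against the background level) and at 6.29 in KAT5 KO cells. It was therefore at least 2.23-fold higher in KAT5 KO cells, with a difference of 1.16 against the background level. Cdh3, the P-cadherin known from placenta and skin, was at 6.81 in wild-type and 5.61 in KAT5 KO cells (-1.20). The KAT5 KO level of Cdh3 lay 0.47 above the background level. In the GRCm38.p6 annotation Cdh3 and Cdh1 are next to each other among protein-coding genes, and both were lower in KAT5 KO cells (Cdh1 minus Cdh3, -2.19 between their log2 differences).

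**Figure D1:**
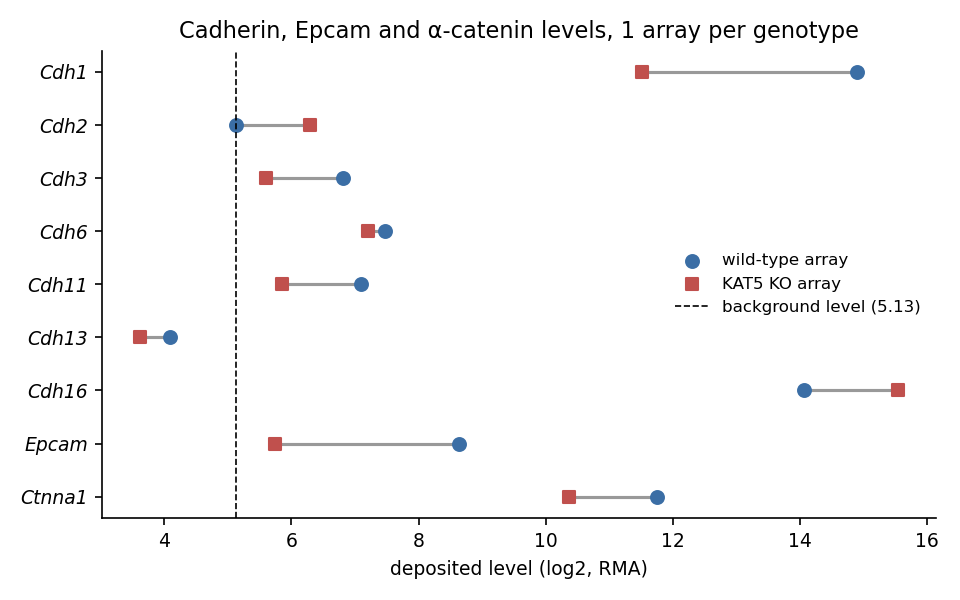
Deposited log2 level of each gene on the array of wild-type (circles) and of KAT5 KO cells (squares), with the background level of 5.13 as a dashed line. Each row shows a gene against itself, since levels of different probe sets are not comparable. Cdh1 and Epcam show the widest gaps towards lower levels in KAT5 KO cells, and Cdh16 and Cdh2 lie to the right on that array.

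Of the type II cadherins, Cdh11 was lower and Cdh6 was within 2-fold. Cdh6, which in mouse marks the forming PT during kidney development, was at 7.47 in wild-type and 7.21 in KAT5 KO cells. Its difference of -0.26 was within 2-fold, and 39.9% of measured genes had a more negative one. Cdh11, a cadherin of mesenchymal cells, was at 7.09 and 5.85 on the wild-type and KAT5 KO arrays, a difference of -1.24 or 2.36-fold lower. Its KAT5 KO level lay 0.72 above the background level.

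The atypical cadherins lack the tail that binds catenins. Cdh16, the Ksp-cadherin of the kidney tubule, was at 14.07 in wild-type and 15.54 in KAT5 KO cells, 2.78-fold higher with a difference of 1.47. Of the measured genes, 11.7% were higher by more. Cdh16 and Cdh1 both lay far above the background level on each array, and the gap between their differences was -4.86 (Cdh1 minus Cdh16). Cdh13, the T-cadherin that is held in the membrane by a lipid anchor, was at 4.09 and 3.62, under the background level on both arrays, and no difference was computed for it.

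Epcam was at 8.64 in wild-type and 5.75 in KAT5 KO cells. The difference was -2.90, or 7.46-fold lower, with 0.978% of measured genes further down. Its KAT5 KO level lay 0.61 above the background level. Ctnna1, which encodes α-catenin, was at 11.76 and 10.36 on the wild-type and KAT5 KO arrays, 2.64-fold lower (-1.40). Ctnna1 and Kat5 itself (-1.52) therefore had differences of like size.

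Promoter sequences are shown for Epcam, which had the largest difference after Cdh1, and for Cdh6, which was within 2-fold. They are RefSeq sequences of build GRCm38.p6, and the promoter table used here held 3 of the 10 genes, Ctnnb1 being the other one. Each is the 250 bases before the annotated start of the gene, read 5′ to 3′ on the strand of the gene, at chr17:87635729-87635978 (plus strand) for Epcam and chr15:13173676-13173925 (minus strand) for Cdh6. Capitals mark CACCTG or its reverse complement CAGGTG, the E-box form that repressors of the Snail and Zeb families are known to bind.
Epcam: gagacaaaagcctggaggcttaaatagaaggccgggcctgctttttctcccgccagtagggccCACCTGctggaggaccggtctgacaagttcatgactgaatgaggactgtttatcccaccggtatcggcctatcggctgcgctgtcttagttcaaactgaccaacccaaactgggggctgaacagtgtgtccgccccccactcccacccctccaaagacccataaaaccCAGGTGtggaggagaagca
Cdh6: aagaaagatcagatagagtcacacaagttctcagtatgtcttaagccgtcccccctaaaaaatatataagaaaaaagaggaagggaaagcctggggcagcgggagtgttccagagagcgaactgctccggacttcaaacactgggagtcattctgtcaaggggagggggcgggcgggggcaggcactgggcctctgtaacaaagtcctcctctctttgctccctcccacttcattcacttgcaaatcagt

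The Epcam sequence held the motif 2 times, from 187 to 182 and from 19 to 14 bases before the start, and the Cdh6 sequence held 0. Among 32851 promoters of the same length, 17.2% held it at least 1 time and 2.06% at least 2 times. Both Epcam matches are also matches to the general E-box CANNTG, of which the Cdh6 sequence held 1 and which 66.2% of promoters held. The GC box GGGCGG or CCGCCC occurred 1 time in Epcam and 2 times, overlapping, in Cdh6, and in 32.7% of promoters. These matches describe letters in the window and not sites in use.

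Over the 8 genes above background, 2 were higher by 2-fold or more in KAT5 KO cells (Cdh2 and Cdh16), 5 were lower by 2-fold or more (Cdh1, Epcam, Ctnna1, Cdh11 and Cdh3) and 1 was within 2-fold (Cdh6). Over all 11654 measured genes, 17.7% were higher by 2-fold or more and 15.9% were lower by 2-fold or more. The share of the 8 genes was 25.0% higher and 62.5% lower, and their median difference was -1.22 against -0.05 over all measured genes. Of the 5 lower genes, Cdh1, Epcam and Ctnna1 stayed lower by 2-fold or more under each of the 3 scalings and 4 other background settings tried, whereas Cdh3 and Cdh11 depended on the background level. Cdh1 and Ctnna1 lay above every background level, so those settings could not move them. When the background level was set at the highest of 23 background control probe sets (6.58), Cdh3 was at -0.23 and Cdh11 at -0.51. When it was set at the 99th percentile over receptor genes (5.89), Cdh2 was at 0.40 and Cdh3 at -0.91.

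**Figure D2:**
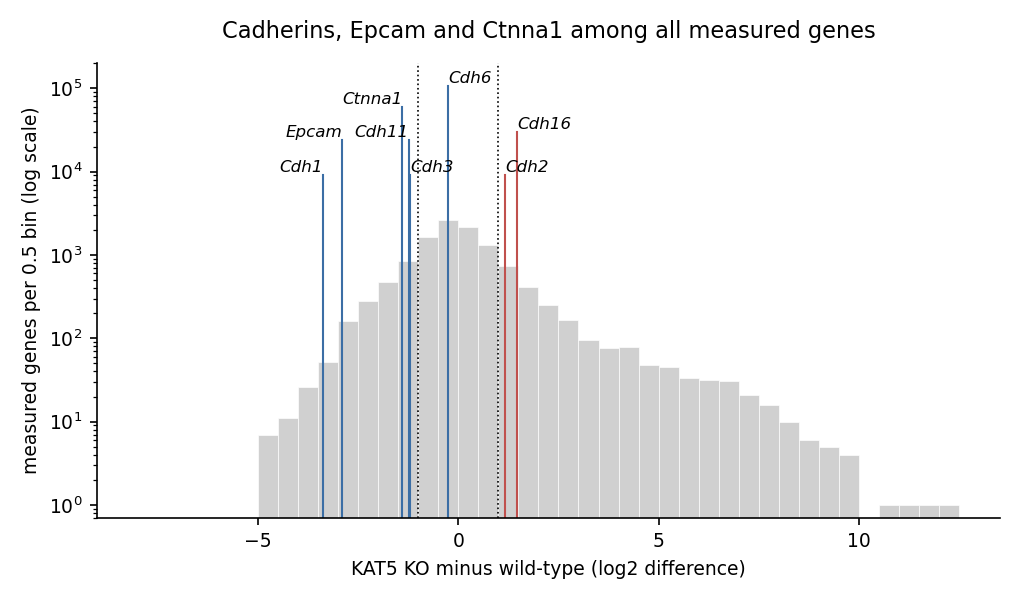
Log2 difference, KAT5 KO minus wild-type, of all 11654 measured genes (grey bars, genes per bin of 0.5 on a log axis) with the 8 genes above background as vertical lines, whose heights only separate the names. Dotted lines mark 2-fold. Cdh1 (-3.39) and Epcam (-2.90) lie in the thin lower tail, and Cdh2 (1.16) and Cdh16 (1.47) lie past 2-fold on the other side.

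**Figure D3:**
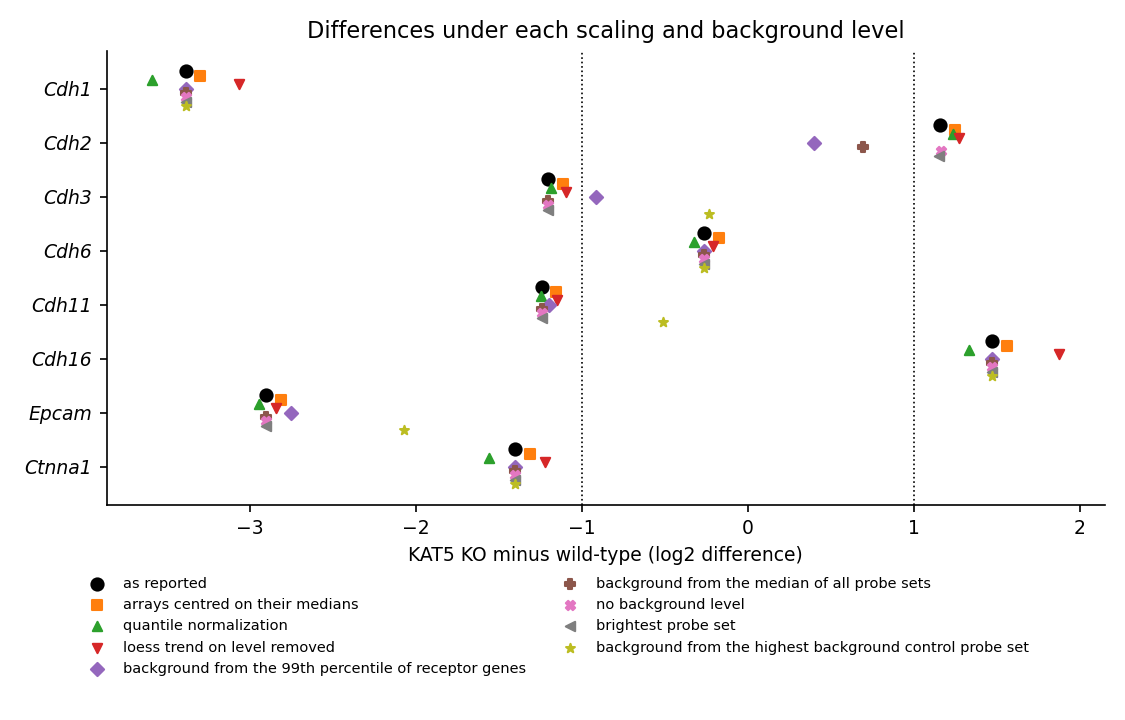
Log2 difference of each gene under each scaling of the arrays and each background level, with dotted lines at 2-fold and black circles for the values as reported. Cdh1, Epcam, Ctnna1 and Cdh16 stayed on the same side of 2-fold throughout, and Cdh2, Cdh3 and Cdh11 crossed it with a higher background level. The background settings could not move Cdh1, Ctnna1 and Cdh16, which lay above each of them.

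Other cadherins were mostly not detected. Over all genes with a symbol, 7851 of 19505 were under the background level on both arrays. Of 16 further Cdh genes, 12 were under the background level on both arrays, 1 was lower by 2-fold or more, 1 was within 2-fold and 2 (Cdh18 and Cdh23) reached background on 1 array only and had bounds under 2-fold. With no background level 2 were lower. The lower gene was Cdh5, the VE-cadherin of endothelium, at 7.98 in wild-type and 5.21 in KAT5 KO cells (-2.77). Cdh5 is the next protein-coding gene to Cdh11 in GRCm38.p6. Of the 6 measured genes among the large Fat, Dachsous, Celsr and calsyntenin cadherins, which include those of planar polarity, 4 were within 2-fold, with Celsr3 at -0.88. The others, Celsr2 (0.73) and Dchs1 (-0.57), had bounds under 2-fold, and with no background level 1 gene of the list was higher and 1 was lower by 2-fold or more.

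The cadherins of the brush border and their partners were higher in KAT5 KO cells. Cdhr2 and Cdhr5 tie the tips of neighbouring microvilli, and Ush1c, Anks4b, Myo7b and Calml4 encode the proteins that anchor them. All 6 were higher by 2-fold or more, against 17.7% of all measured genes. Their median difference was 3.75, and that of PT markers was 6.87. Cdhr5 was at 8.85 in wild-type and 13.77 in KAT5 KO cells, 30.2-fold higher. Calml4 was at 5.77 and 11.27, 45.1-fold higher, and Myo7b, the motor of the complex, was at 6.58 and 11.07. Cdhr2 and Anks4b were under the background level in wild-type and were at least 4.15-fold and 8.03-fold higher.

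Among further catenins and linkers of the junction, more genes were higher than lower by 2-fold or more. The catenin genes Ctnnd1, Ctnnal1 (-0.39) and Ctnnd2 were not among the higher ones. The shares over all measured genes were 17.7% higher and 15.9% lower. Of 18 measured catenins and linkers of the junction, 8 were higher by 2-fold or more, 1 was lower, 7 were within 2-fold and 2 (Nectin4 and Ctnnd2) had bounds under 2-fold (median 0.83). With no background level 2 were lower. Nectin3, an adhesion protein of the same junctions, was at 7.95 in wild-type and 10.80 in KAT5 KO cells (2.85). Camsap3, which holds microtubule ends at the junction, was higher by 2.15, Nectin1 by 2.14 and Arvcf, a relative of p120-catenin, by 2.02. Actn1, an actin crosslinker, was lower (-1.41), while its relative Actn4 was higher by 1.96. Ctnnd1, which encodes p120-catenin and steadies cadherins at the membrane, had a difference of 0.87, and the gap of Ctnna1 to it was -2.27. Jup, the plakoglobin that can take the place of β-catenin, was at 10.76 and 10.68 (-0.08).

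Desmosomes join epithelial cells through their own cadherins, whose genes were at or near background. Of 15 desmosome genes 6 were measured, of which 2 were higher by 2-fold or more, 1 was lower, 2 were within 2-fold and 1 (Dsc3) had a bound under 2-fold. The count of higher genes was 1 with each higher background level, and 3 genes were lower with no background level. Their median was -0.01, and it was 0.07 with the arrays centred and 0.05 with quantile normalization, so it has no settled direction. Dsp, the desmoplakin that binds keratin, was at 7.60 in wild-type and 5.49 in KAT5 KO cells (-2.11). Perp and Pkp2 were higher by 1.91 and 1.36. Dsg2, a desmosomal cadherin, had a difference of -0.14.

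**Figure D4:**
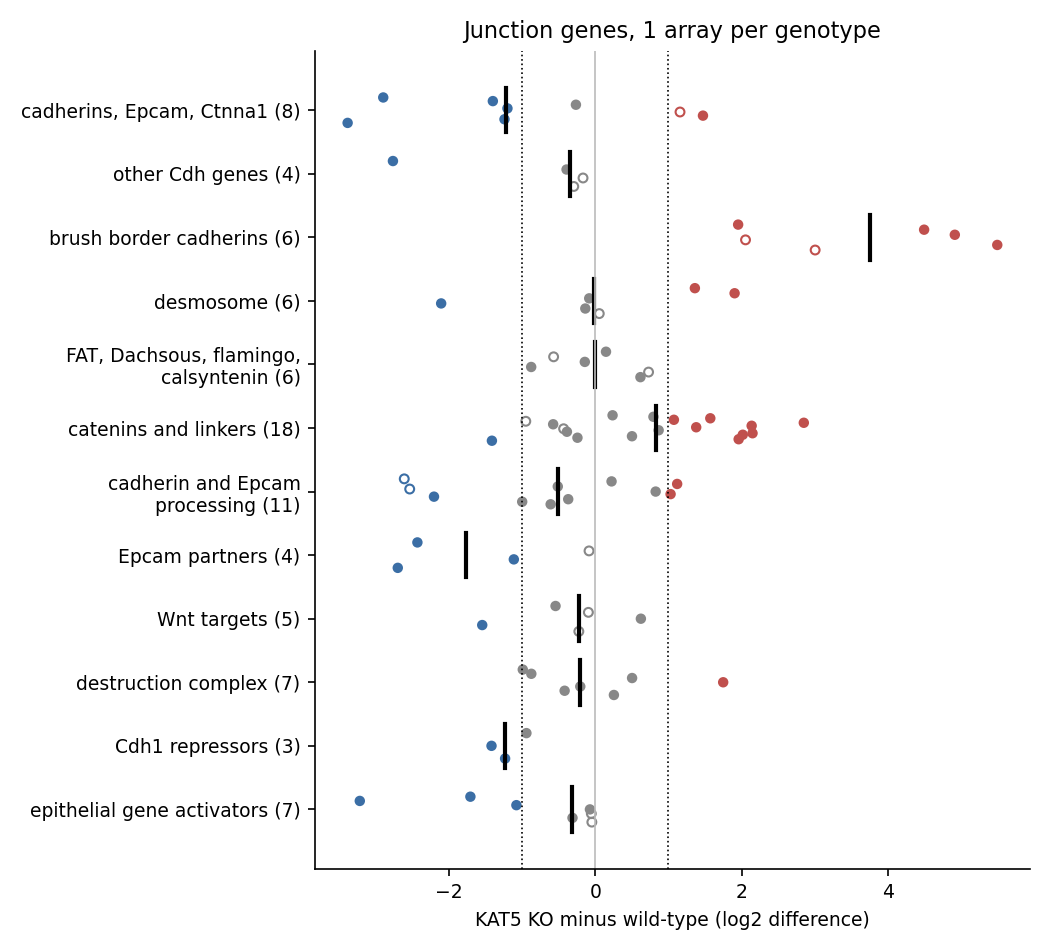
Log2 difference of each measured gene in the lists of junction and regulatory genes, with the number measured in brackets, black bars at the medians and dotted lines at 2-fold. Filled points lay above background on both arrays and open points, which are bounds, on 1 array only. Brush border cadherins all lie above 2-fold (median 3.75), and the cadherins, Epcam and Ctnna1 lie mostly below (median -1.22).

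Partners of Epcam at the membrane were mostly lower. Of 4 measured, 3 were lower by 2-fold or more and 0 were higher (median -1.77). The remaining gene, Cldn7, was near background at 5.22 and 4.88 and had a bound under 2-fold. With the loess trend on level removed 2 were lower. Cd44, a hyaluronan receptor, was at 12.64 in wild-type and 9.94 in KAT5 KO cells, and the tetraspanin Tspan8 was at 8.22 and 5.79. The tetraspanin Cd9 was lower by less (-1.11). Of 11 measured genes that process cadherins or Epcam, 2 were higher, 3 were lower and 6 were within 2-fold. St14, the protease matriptase that cleaves Epcam, was under the background level in KAT5 KO cells and was at least 6.11-fold lower, from 7.74. Its inhibitor Spint1 was higher by 1.12, and Furin, a protease that matures cadherin precursors, by 1.03, and under quantile normalization 0 genes of this list were higher by 2-fold or more. Cbll1, which encodes the Hakai ligase that marks E-cadherin for removal, was at 12.24 and 10.03 (-2.20), and the convertase Pcsk6 was at least 5.80-fold lower.

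Of the genes known as targets of β-catenin, 6 of 11 did not reach the background level on either array. Over all genes with a symbol, this held for 7851 of 19505. Of the 5 measured, 1 was lower by 2-fold or more, 2 were within 2-fold and 2 (Lgr5 and Tnfrsf19) had bounds under 2-fold. With no background level 2 were lower. Myc, which many other signals also raise, was at 12.02 in wild-type and 10.47 in KAT5 KO cells (-1.55). Axin2, a target known across tissues, was at background on both. In the complex that degrades β-catenin, 6 of 7 measured genes were within 2-fold and Btrc, its ubiquitin ligase subunit, was higher by 1.75, while 2 genes were lower by 2-fold or more under quantile normalization.

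No measured regulator of epithelial cadherin genes was higher by 2-fold or more. Snai1, Snai2, Twist1 and Twist2, which repress Cdh1, did not reach the background level on either array. Zeb1, another repressor of Cdh1, was at 10.20 in wild-type and 9.26 in KAT5 KO cells (-0.94), and the E-box factors Tcf4 and Tcf3 were lower, at -1.42 and -1.23. Of 7 measured factors known to raise epithelial genes, 3 were lower by 2-fold or more and 0 were higher, and with no background level 5 were lower. Tfap2b, a factor of the distal nephron, was at 10.12 and 6.90 (-3.22), Tfcp2l1, a factor of the collecting duct, was at 13.54 and 11.83 (-1.71), and Tfap2a had a difference of -1.08.

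Most markers of the distal nephron and collecting duct were lower in KAT5 KO cells, as were Cdh1 and Epcam. In this bulk RNA, fewer cells of a type and less RNA per cell cannot be told apart. Over the loop of Henle, distal convoluted tubule, principal cells and intercalated cells together, 45 markers were measured. Of these, 35 were lower by 2-fold or more and 2 were higher, with a median of -2.17. Over all measured genes, 15.9% were lower and 17.7% were higher. The 2 higher markers were Cldn10 of the loop of Henle list (2.47) and Atp6v0a4 of the intercalated cell list (3.30). Of these 45 genes, at least 12 were lower by more than Cdh1 and at least 18 by more than Epcam. The median was -2.98 for 12 genes of the loop of Henle, -1.67 for 10 of the distal convoluted tubule, -1.32 for 10 of principal cells and -2.42 for 13 of intercalated cells. Slc12a1, the salt cotransporter of the loop of Henle, was at 17.55 in wild-type and 12.99 in KAT5 KO cells, and Aqp2, the water channel of principal cells, was at 13.26 and 9.65. Umod was at 19.93 in wild-type cells, the highest value of the table, so its difference of -4.28 is a bound. Sums on the linear scale took all markers of a list on the array, with no background level. For the 14 loop of Henle markers other than Umod, the sum was 18.63 in wild-type and 14.47 in KAT5 KO cells (log2). That of the 10 principal cell markers was 14.08 and 12.15. Each sum was compared only between arrays, since levels of different probe sets are not comparable. The part of these cell types in the lower Cdh1 and Epcam was not tested.

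On the other side, all 26 measured PT markers were higher by 2-fold or more, with a median of 6.87, and all 26 were higher by more than Cdh16. Cdh2 has only a bound and was not ranked among them. The smallest difference among them was 2.70, for Napsa. Slc34a1 was at the highest value of the table in KAT5 KO cells and was left out of the sum. On the linear scale, the other 26 PT markers on the array summed to 15.92 in wild-type and 22.37 in KAT5 KO cells (log2). That sum includes 1 gene under background on both arrays. The part of the PT genes in the higher Cdh2, Cdh16 and brush border cadherins was not tested.

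Some markers of stroma and most of endothelium were lower beside Cdh11 and Cdh5. Of 9 measured genes of fibroblasts and mural cells, 4 were lower by 2-fold or more and 0 were higher (median -0.77), with Acta2, an actin of smooth muscle, at 8.39 and 6.36 and Col1a2, Col3a1, Notch3 and Des under the background level on both arrays. Summed on the linear scale, all 13 genes of this list on the array were at 10.12 in wild-type and 8.80 in KAT5 KO cells (log2). Of 11 measured endothelial genes, 7 were lower and 0 were higher (median -1.11). The sum of all 13 on the array was 12.09 in wild-type and 9.84 in KAT5 KO cells. With the background level at the 99th percentile over receptor genes, 4 endothelial genes were lower and the median was -0.83, and at the highest background control probe set 3 were lower. That last level left 2 lower genes of fibroblasts and mural cells. The part of these cells in the lower Cdh11 and Cdh5 was not tested. Myeloid markers were bright on both arrays, with a median level of 15.13 over 12 genes in wild-type and 12.83 in KAT5 KO cells, and 11 of 12 were lower. Lymphocyte markers (5 of 6 lower, median -1.80) and podocyte markers (2 of 4 lower, median -1.07) also had 0 higher genes.

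**Figure D5:**
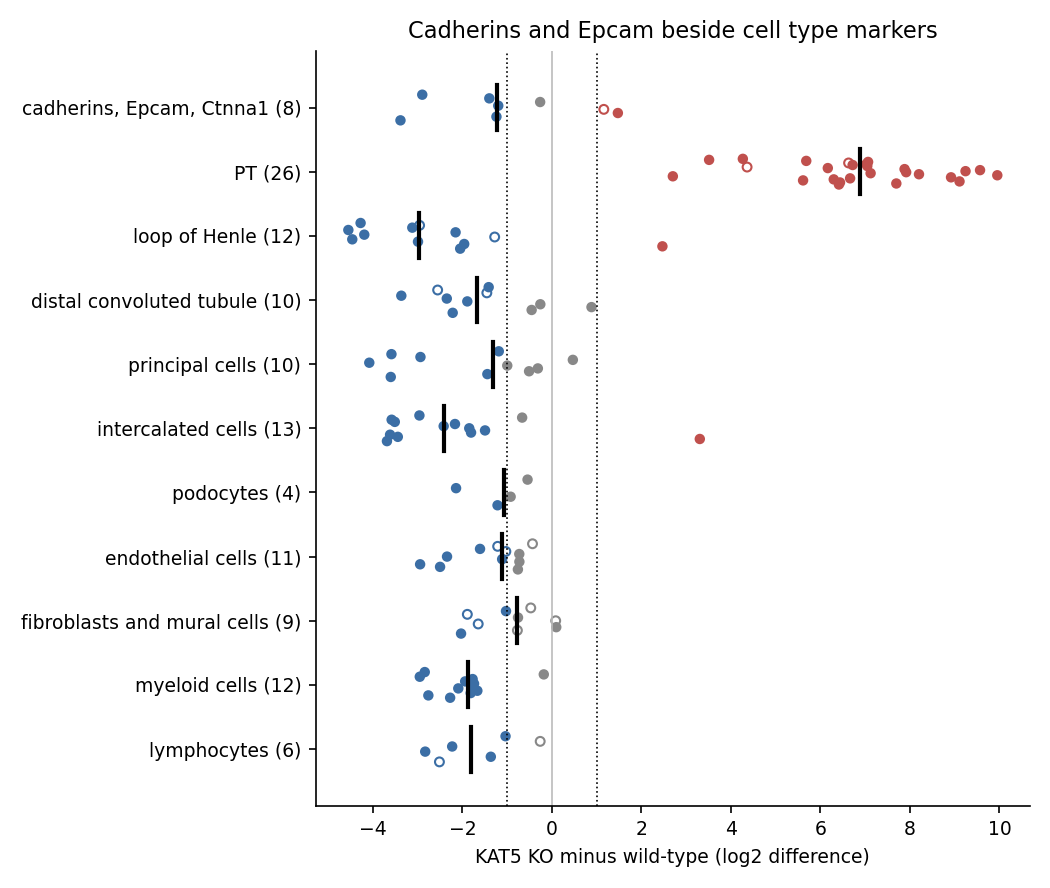
Log2 difference of the cadherins, Epcam and Ctnna1 beside markers of cell types, with the number measured in brackets, black bars at the medians, open points for bounds and dotted lines at 2-fold. PT markers (median 6.87) lie far to the right of every cadherin shown in the top row, and loop of Henle markers (median -2.98) lie around Cdh1 (-3.39) and Epcam (-2.90).

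Markers of tubule injury, in which cadherins are known to be lost or exchanged, were mostly lower in KAT5 KO cells. Of 11 measured genes 7 were lower by 2-fold or more and 1 was higher (median -1.64), and the higher gene was Prom1, used for selection. Krt7, a keratin that is also known in the collecting duct, was at 10.96 in wild-type and 7.56 in KAT5 KO cells, and Cd24a was at 10.42 and 7.08. Vim, the intermediate filament that goes with loss of E-cadherin in epithelial cells and is also made by stroma and leukocytes, was at 12.42 and 10.78 (-1.64). Lcn2, which encodes NGAL, was at 8.35 and 5.27 (-3.08). Havcr1, which encodes KIM-1, did not reach the background level on either array. The paper reported both KIM-1 and NGAL raised in KAT5 KO mice by RT-PCR, in kidney cortex and not in isolated PT cells.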

How the data were processed

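RNA from isolated PT cells of wild-type and KAT5 KO mice was run on Clariom S mouse arrays, 1 per genotype. Using RMA within the Transcriptome Analysis Console, the authors made and deposited log2 levels of 28846 probe sets, and versions were not given in the sources used here. Such values are corrected for background and scaled to lessen array-wide shifts in RNA content. The median over all probe sets was still 5.59 in wild-type and 5.50 in KAT5 KO cells. Of the probe sets, 19572 carried the symbol of 1 gene in the platform annotation, 0 carried several and 9274 carried none and were left out. Probe sets of the 55 genes with more than 1 were averaged, and each gene described had 1. All 19505 symbols were found in a RefSeq table (GRCm38.p6).

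The background level (5.13) was the higher of the 95th percentiles that 1450 olfactory, vomeronasal and taste receptor genes reached on the arrays. Lower levels were set to it, and comparisons were limited to 11654 genes exceeding it on 1 or both arrays. A gene above it on 1 array only has a bound, given as at least N-fold. A log2 difference of 1 (2-fold) was the threshold. The genes described and the lists were chosen with earlier results of these data known. Named were all 10 genes, Kat5, Prom1, Pecam1 and, within each list, up to 4 genes in each direction at 2-fold or more, from the largest. Genes within 2-fold or under background lie outside this rule. So do Actn4, Cdhr2, Ush1c, Napsa, Slc34a1, Vim and the Y-linked genes. All of these were added after their values were seen. Not all genes that the rule allows are printed. The steps were tested on arrays simulated with known differences. Alternatives were centring, quantile normalization, a loess trend (span 0.3), other background levels, the brightest probe set, and 1.5-fold and 3-fold. Computations used Python 3.11.15, numpy 2.4.6, pandas 2.3.3, statsmodels 0.14.6 and matplotlib 3.10.9.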

Additional observations from a re-analysis of the deposited data

How the results depend on the processing

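No paired analysis was possible because each genotype had 1 array, and for the same reason no array could be left out. The count of lower genes among the cadherins, Epcam and Ctnna1 (5) was 3 with the background level at the highest background control probe set, an alternative chosen after seeing the data, and 2 at 3-fold. The count of higher genes (2) was 1 with the background level at the 99th percentile over receptor genes, at the median of all probe sets or at the highest background control probe set, and 0 at 3-fold. Cdh2 could not be measured with the last of these levels, which lies above both of its values, and it was at 0.70 with the median of all probe sets. Under centring, quantile normalization and removal of the trend on level, Cdh1 lay between -3.59 and -3.06, Epcam between -2.94 and -2.81, Cdh16 between 1.33 and 1.88 and Ctnna1 between -1.56 and -1.22. Epcam was at -2.75 with the 99th percentile over receptor genes and at -2.07 with the highest background control probe set. Both are bounds, since its KAT5 KO level lies under these background levels. Kat5 lay between -1.68 and -1.44 over all settings. Of 71 differences of single genes recomputed, 66 kept their side of 2-fold and 5 did not, and 0 changed direction past 2-fold. Many of these could not change, since each gene had 1 probe set. Cdh1, Cdh6, Cdh16, Ctnna1 and Kat5 also lay above every background level on both arrays. Of 176 list medians, 154 kept direction and side. Over all measured genes, the share of calls that were higher was 52.7%, and it was 58.3% with the trend on level removed and 48.5% with quantile normalization. At 3-fold the calls over all genes were 1245 higher and 917 lower, and at 1.5-fold 3103 and 3132. The levels of Cdh3, Cdh11, Epcam and Cdh2 on their dimmer array lie within 1 log2 unit of background.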
